A study of Homo sapiens with 4 samples.

Results

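The genes described here are 6 metallothionein genes (MT1E, MT1F, MT1G, MT1M, MT1X and MT2A), the gene of their zinc-sensing regulator MTF1, and the zinc exporter gene SLC30A1. They were chosen by symbol, 8 genes beside the 26348 that the expression table lists. Of these 8, MT1M has no row in the table used here, MT1E and MT1G lay below the filter on low values, and MT1F, MT1X, MT2A, MTF1 and SLC30A1 were tested. RNA of 2 human cell lines was sequenced. 293T is a line of embryonic kidney origin that the labels call renal epithelial, and A549 derives from a human non-small cell lung tumour. Each line was kept for 2 h in a magnetic field (exposed) or without one (control), which gave the groups A549 exposed, A549 control, 293T exposed and 293T control, with 3 libraries in each. The sources used here do not give the field's strength or source, or the culture temperature. They also do not say whether the 3 libraries in each group are separate cultures. The p-values therefore reflect library-to-library spread alone, and that spread may be technical.

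Metallothioneins are small, cysteine-rich proteins of the cytosol and nucleus that bind zinc, copper and cadmium. MTF1 is a zinc-finger transcription factor. When free zinc rises, or when cadmium or oxidants release zinc from proteins, MTF1 enters the nucleus and binds metal response elements in the promoters of the metallothionein genes and of SLC30A1, whose product (ZnT1) carries zinc out of the cell. MTF1 is itself controlled largely as a protein, through its zinc fingers, phosphorylation and movement between compartments, and metallothionein genes also answer to glucocorticoids.

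Each library held 37171616 to 38883963 counts, the highest total 1.046 times the lowest. Levels are FPKM, fragments scaled to the length of the gene and to the total of the library, and means are given ± SD over 3 libraries. Field effects are differences of log2(FPKM + 1), exposed minus control, with a standard error (SE), and were called at a Benjamini-Hochberg adjusted p under 0.05 in a limma fit over 13811 genes. In A549, 1837 genes were called higher and 3711 lower, but 2695 and 2525 when each library was centred on its median, and 2400 and 2786 after quantile normalization. In 293T the split was 1897 higher and 3346 lower, against 2403 and 2620 after quantile normalization. Exposed replicate 3 of each line lay nearer to the controls than the other exposed libraries on the first principal component, at 9.91 against 15.67 and 18.19 in A549 and at 6.51 against 16.12 and 14.69 in 293T. Of the markers of alveolar type II cells, the lung cell type A549 is likened to, 1 of 8 (ABCA3) had a mean of at least 1 FPKM in A549, while 5 of 5 epithelial markers did. In 293T, 1 of 7 kidney tubule markers (LRP2), 2 of 5 epithelial markers (KRT8 and KRT18) and 3 of 3 neural-type genes reached that level. ABCA3 reached it in 293T as well, and 2 of the 3 neural-type genes (NEFL and INA) did in A549.

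To show where MTF1 could bind, the bases before the start of each gene were searched for the core of the metal response element, TGCACNC or TGCGCNC, on both strands. A promoter was matched for 4 of the 8 genes, from RefSeq on GRCh38.p14, and MT1E, MT1F, MT1G and MT1M have no entry in that table. The 250 bases before the start are printed 5′ to 3′ on the gene's own strand, with the matches to the core in capitals, for MT2A (chr16:56608334-56608583), MT1X (chr16:56682220-56682469) and SLC30A1 (chr1:211579162-211579411, minus strand), because these 3 hold matches.
MT2A: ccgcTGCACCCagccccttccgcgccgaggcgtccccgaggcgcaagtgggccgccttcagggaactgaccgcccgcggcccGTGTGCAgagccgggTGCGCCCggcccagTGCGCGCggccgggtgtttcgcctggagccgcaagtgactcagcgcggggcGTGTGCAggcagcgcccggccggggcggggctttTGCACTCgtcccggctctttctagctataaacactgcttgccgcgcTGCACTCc
MT1X: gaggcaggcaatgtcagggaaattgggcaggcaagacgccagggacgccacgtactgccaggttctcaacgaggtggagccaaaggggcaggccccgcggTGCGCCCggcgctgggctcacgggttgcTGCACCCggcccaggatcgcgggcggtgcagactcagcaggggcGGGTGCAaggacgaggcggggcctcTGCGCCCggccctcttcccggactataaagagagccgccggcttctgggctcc
SLC30A1: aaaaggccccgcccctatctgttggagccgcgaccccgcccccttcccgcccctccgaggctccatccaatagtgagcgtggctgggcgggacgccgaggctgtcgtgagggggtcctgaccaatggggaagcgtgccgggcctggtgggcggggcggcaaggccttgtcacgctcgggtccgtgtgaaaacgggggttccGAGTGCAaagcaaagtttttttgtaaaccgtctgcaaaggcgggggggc

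MT2A held 7 matches to the metal response element core, MT1X held 4 and SLC30A1 held 1. Of 35116 promoter windows of the same length in the table, 24.8% held at least 1 match, 0.37% held at least 4 and 0.0313% held at least 7. The matches nearest to the start began 8 bases before it in MT2A, 53 in MT1X and 49 in SLC30A1. The MTF1 window itself (chr1:37859593-37859842, minus strand) held no match, which says only that these letters are not in it. A paired heat shock unit, GAANNTTC or TTCNNGAA, which heat shock factor 1 recognises in longer arrays, was in none of the 4 windows and in 11.6% of all windows. The antioxidant response element core TGACNNNGC occurred once in each of MT2A, MT1X and SLC30A1 and in 10.9% of all windows, and it overlapped no match to the metal response element core. A match is a description of the sequence and not a binding site.

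**Figure D1:**
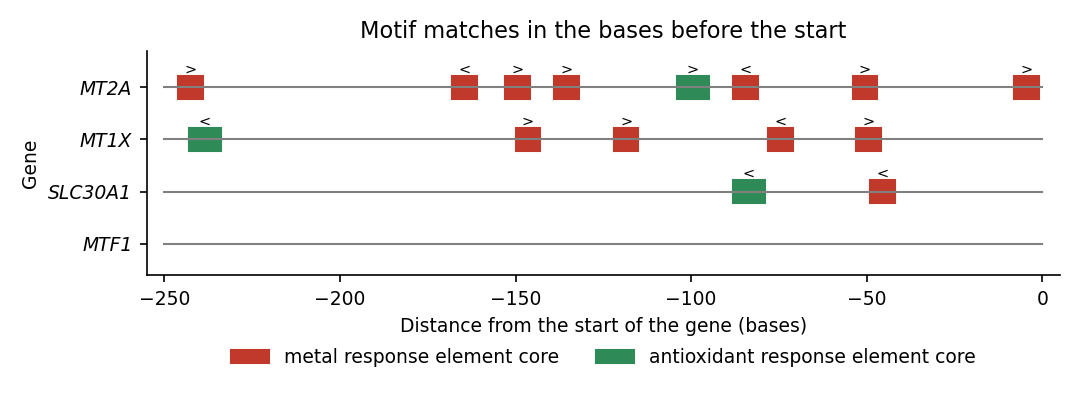
Motif matches by distance from the start of the gene in bases (x axis) for 4 genes (rows). Red boxes are matches to the metal response element core, green boxes to the antioxidant response element core, and the arrowheads give the strand relative to the gene; MT2A has 7 red boxes, MT1X 4, SLC30A1 1 and MTF1 none.

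The transcript of the sensor rose in both lines. MTF1 (chr1:37809574-37859592) was at 3.91, 3.96 and 3.24 FPKM in the exposed A549 libraries and at 2.36, 2.51 and 2.37 FPKM in the A549 controls. All 3 exposed libraries lay above all 3 controls, and exposed replicate 3 was the lowest of the exposed. The means were 3.70 ± 0.40 and 2.41 ± 0.084 FPKM, a ratio of 1.54, with a log2 fold change of 0.46 (SE 0.06, 95% interval 0.34 to 0.58, limma adjusted p = 7.01e-05). That change was above 97.7% of the tested genes in A549.

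With the field, MTF1 in 293T was at 3.78, 3.83 and 3.84 FPKM, and without it at 2.95, 2.87 and 2.89 FPKM. Again the groups did not overlap, and the libraries of a group were close together. The ratio of the means, 3.82 ± 0.0336 to 2.90 ± 0.0418 FPKM, was 1.31, and the log2 fold change was 0.30 (SE 0.06, limma adjusted p = 0.00144). The effect in A549 was 0.16 larger on the log2 scale (SE 0.08, 95% interval -0.02 to 0.33), a difference that did not pass the threshold (limma adjusted p = 0.226). Without A549 exposed replicate 3 it was 0.23 and passed (limma adjusted p = 0.0241). Since these are bulk libraries, a rise in a share of the cells and a smaller rise in all of them cannot be told apart. The pseudogene RPS2P13 lies within the span of MTF1, and the sources used here do not say whether reads were counted by strand.

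**Figure D2:**
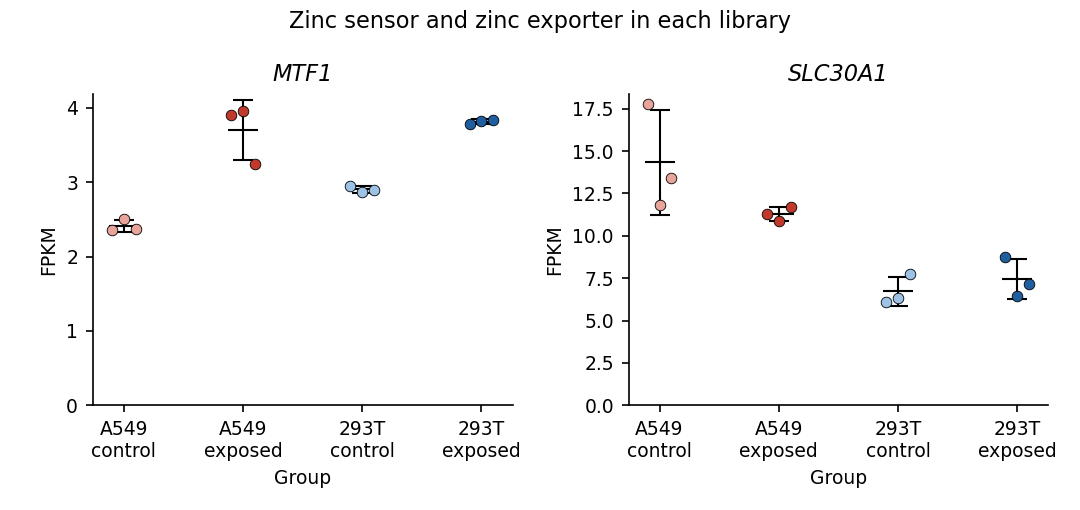
FPKM of MTF1 and SLC30A1 (y axes, from 0) in each of the 12 libraries by group (x axis), with points for libraries, a horizontal mark for the mean and bars for 1 SD. The exposed libraries of MTF1 lie above the controls in both lines, between 3.24 and 3.96 against 2.36 to 2.95 FPKM, and the A549 control libraries of SLC30A1 spread from 11.8 to 17.8 FPKM.

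MT2A (chr16:56608584-56609497), the most abundant metallothionein in A549, showed no change in either line that passed the test. It was at 249, 213 and 197 FPKM in the exposed A549 libraries and at 231, 226 and 232 FPKM in the A549 controls. Exposed replicate 1 was above every control and the other exposed libraries were below them, so the groups overlapped. The means were 220 ± 26.8 and 230 ± 2.90 FPKM, and the log2 fold change was -0.07 (SE 0.13, 95% interval -0.35 to 0.21, limma adjusted p = 0.718).

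In 293T the levels of MT2A were 12.3, 12.8 and 16 FPKM with the field and 13.8, 10.8 and 16.4 FPKM without it. The 3 exposed values all fell inside the range of the controls. The log2 fold change was 0.02 (SE 0.13, 95% interval -0.26 to 0.30, limma adjusted p = 0.948). The 2 field effects differed by -0.09 (95% interval -0.48 to 0.31, limma adjusted p = 0.798), A549 minus 293T.

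MT1X (chr16:56682470-56684196), the second most abundant member in A549, fell in exposed A549 cells. Its levels were 27.9, 35.9 and 34.6 FPKM in the exposed libraries and 41.8, 43.9 and 41.3 FPKM in the controls. All exposed libraries lay below all controls, and the lowest was exposed replicate 1, the library with the highest MT2A. The mean went from 42.3 ± 1.41 to 32.8 ± 4.30 FPKM, 1.29-fold lower, with a log2 fold change of -0.37 (SE 0.10, 95% interval -0.58 to -0.15, limma adjusted p = 0.0113). Its adjusted p was between 0.00401 and 0.0493 over 21 alternative settings.

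The levels of MT1X in 293T were 12.7, 13.1 and 14.5 FPKM with the field and 12, 13.6 and 15.9 FPKM without it. These ranges overlapped, and the log2 fold change of -0.04 did not pass (SE 0.10, 95% interval -0.25 to 0.18, limma adjusted p = 0.820). The field effect in A549 minus that in 293T was -0.33 (SE 0.14, 95% interval -0.64 to -0.02), with an unadjusted p of 0.0366 and a limma adjusted p of 0.15, so the fall was not shown to differ between the lines. In the GENCODE v29 transcripts, 9.94% of the 125-base stretches of MT1X also occur in AC026461.1, a gene that GENCODE v29 places at chr16:56682470-56687807, across the span of MT1X, and none of those of MT1E, MT1F, MT1G, MT1M or MT2A occur in another gene.

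**Figure D3:**
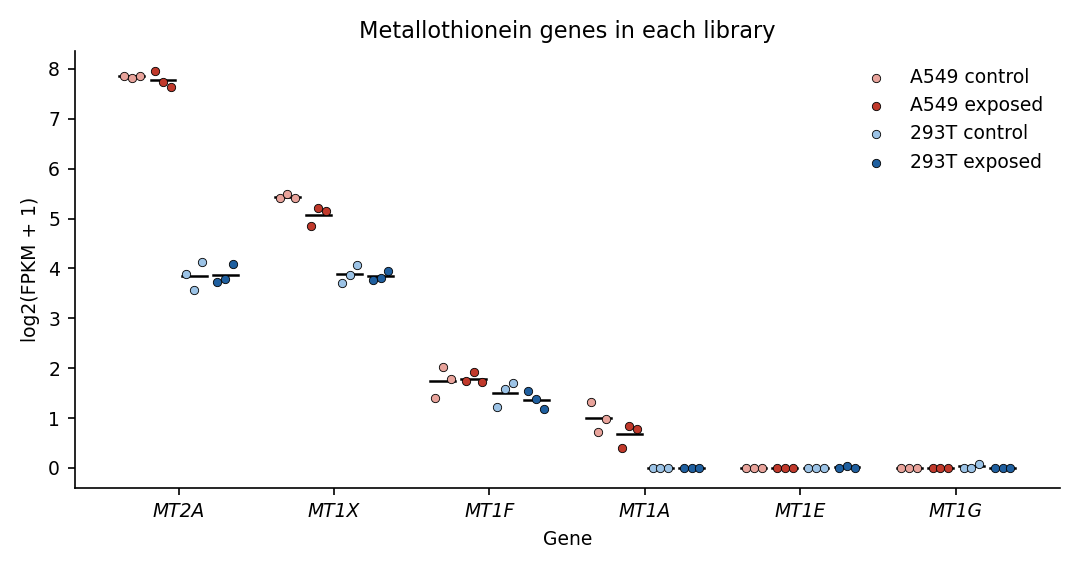
log2(FPKM + 1) (y axis) of 6 metallothionein genes (x axis) in each of the 12 libraries, with colours for the 4 groups and a line at each mean. MT2A and MT1X are higher in the A549 libraries than in the 293T libraries, MT1F lies near 2 FPKM in all groups, and MT1A is above 0 in the 6 A549 libraries only.

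MT1F (chr16:56657959-56659303) was expressed at a low level in both lines, with 23 to 56 counts per library. In A549 it was at 2.33, 2.78 and 2.28 FPKM with the field and 1.65, 3.09 and 2.43 FPKM without it, and the control libraries spanned the exposed ones (log2 fold change 0.05, 95% interval -0.28 to 0.38, limma adjusted p = 0.850). In 293T it was at 1.90, 1.61 and 1.27 FPKM with the field and 1.34, 1.99 and 2.24 FPKM without it (log2 fold change -0.13, 95% interval -0.47 to 0.20, limma adjusted p = 0.534). Neither line gave a change of MT1F that could be told from the spread between its libraries.

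MT1E (chr16:56625781-56627112) and MT1G (chr16:56666730-56668065) were close to silent. MT1E had 1 count in all, in 293T exposed replicate 2 (0.0348 FPKM), and was at 0 in the other 11 libraries. MT1G had 1 count in 293T control replicate 3 (0.0638 FPKM). For MT1G, a count of 0 allows a level of up to 0.188 to 0.197 FPKM, the worth of 3 counts, and this limit covers counting error only. Both genes belong to the cluster that holds MT2A and MT1X, where 16 genes of the family lie within 119 kb of chromosome 16 and 7 of them have a row in the table.

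Of the family genes outside the 8, 3 have a row. MT1A (chr16:56638666-56640087) was at 0.328, 0.802 and 0.720 FPKM in the exposed A549 libraries and 1.49, 0.651 and 0.976 FPKM in the A549 controls, with 5 to 23 counts per library, and was at 0 in all 6 libraries of 293T. It passed the filter only through A549, its groups there overlapped, and its log2 fold change of -0.33 missed the threshold (95% interval -0.61 to -0.04, limma adjusted p = 0.0645). The fit shares its estimate of spread over all groups, and the 6 libraries of 293T at 0 add none. That interval and p-value therefore understate the spread within A549. The A549 control mean of 1.04 ± 0.425 FPKM was 5.27 times a floor of 0.197 FPKM for control 293T, set by 3 counts per library. That ratio leaves out the spread of the A549 controls, the lowest at 0.651 FPKM, and is not a lower bound. MT3, known as the brain form, had at most 3 counts in an A549 library and 0 in 293T. MT1HL1 had 1 count in A549 control replicate 3 (0.076 FPKM) and was at 0 in every other library.

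The zinc exporter showed no rise. SLC30A1 (chr1:211571568-211579161) was at 11.3, 10.9 and 11.7 FPKM in the exposed A549 libraries and at 17.8, 11.8 and 13.4 FPKM in the A549 controls. The exposed libraries were all below the controls, but the highest exposed and the lowest control library were 11.7 and 11.8 FPKM, and control replicate 1 was the highest, as it was for MT1A. The means were 11.3 ± 0.376 and 14.3 ± 3.12 FPKM, and the log2 fold change was -0.30 (SE 0.13, 95% interval -0.58 to -0.02), which did not pass (limma adjusted p = 0.0858). It passed in limma-voom on recovered counts (-0.32, adjusted p = 0.0439) and without A549 control replicate 2 (-0.42, limma adjusted p = 0.0245). Without A549 control replicate 1 it was -0.14 (limma adjusted p = 0.343).

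In 293T, SLC30A1 was at 8.73, 6.47 and 7.14 FPKM with the field and at 6.11, 6.31 and 7.73 FPKM without it. The ranges overlapped, and the log2 fold change of 0.13 did not pass (SE 0.13, 95% interval -0.16 to 0.41, limma adjusted p = 0.483). The effect in A549 minus that in 293T was -0.43 (SE 0.18, 95% interval -0.83 to -0.03), with an unadjusted p of 0.0381 and a limma adjusted p of 0.154. Without A549 control replicate 1 this difference was -0.27 (limma adjusted p = 0.279).

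Over the 5 tested members, 1 was called higher in A549 (MTF1) and 1 lower (MT1X), beside 13.3% of all tested genes called higher and 26.9% called lower. In 293T, 1 was called higher (MTF1) and 0 lower, beside 13.7% and 24.2%. No other member had an unadjusted p under 0.05 in 293T, and limma-voom also called MTF1 alone there. For the difference of the field effect between the lines, limma called 0 of 5 members, beside 12.5% of all genes, and 2 members had an unadjusted p under 0.05 (MT1X and SLC30A1). limma-voom also called 0 members. Leaving out A549 exposed replicate 3 made this count 1. With so few members, these shares are not set apart from the background.

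**Figure D4:**
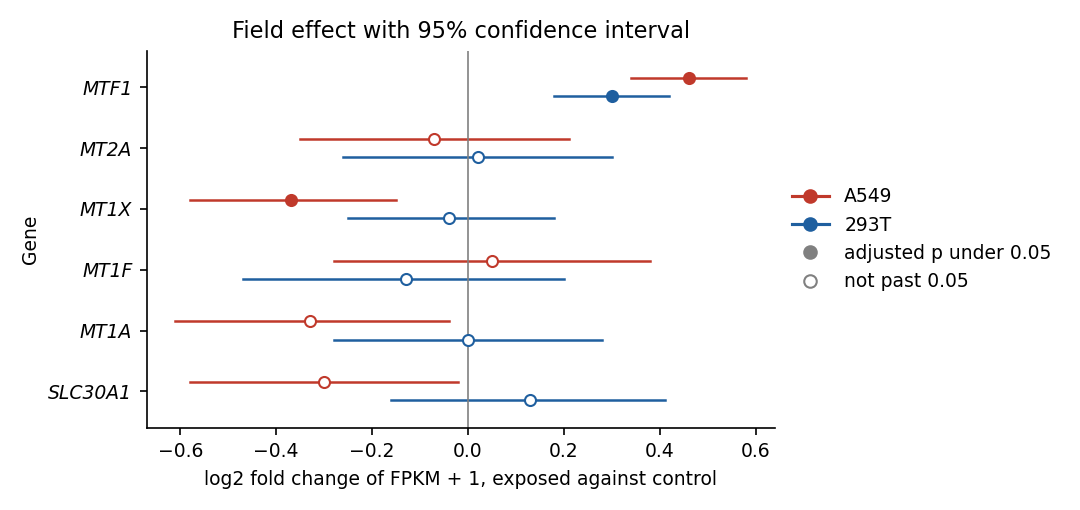
Log2 fold change of FPKM + 1, exposed against control (x axis), with its 95% confidence interval for 6 genes (rows) in A549 (red) and 293T (blue); filled points have an adjusted p under 0.05. MTF1 lies to the right of 0 in both lines (0.46 and 0.30), MT1X to the left in A549 (-0.37), and the other points are open. The interval of MT1A in A549 is too narrow, because its 293T libraries were all at 0.

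The summed level of the 8 metallothionein genes with a row was 280, 252 and 234 FPKM in exposed A549 and 276, 274 and 277 FPKM in control A549. One exposed library lay above the controls and the others below, so no common shift was seen, and the exposed libraries spread more (256 ± 22.8) than the controls (276 ± 1.36). In 293T the sums were 26.9, 27.6 and 31.7 FPKM with the field and 27.1, 26.4 and 34.7 FPKM without it, which overlapped. MT2A made up 85.8% ± 2.86 of the sum in exposed and 83.4% ± 0.649 in control A549, and 47.6% ± 2.45 and 46.3% ± 5.09 in 293T. The ratio of MT2A to MT1X was 8.93, 5.93 and 5.69 in exposed A549 against 5.53, 5.16 and 5.62 in the controls, and 0.79 to 1.15 over the 293T libraries.

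Without the field, MT2A, MT1X and SLC30A1 were higher in A549 than in 293T. Control A549 held 16.8 times the MT2A of control 293T (230 ± 2.90 against 13.7 ± 2.83 FPKM, log2 difference 4.00, SE 0.13, limma adjusted p = 4.75e-12). That placed MT2A above 98.6% of the tested genes in control A549 and above 69.2% in control 293T. MT1X was 3.06-fold higher in control A549 (42.3 ± 1.41 against 13.8 ± 1.98 FPKM, log2 difference 1.55, limma adjusted p = 5.73e-09). SLC30A1 was 2.14-fold higher (14.3 ± 3.12 against 6.72 ± 0.882 FPKM, log2 difference 0.98, limma adjusted p = 1.04e-05). MT1F differed by 0.24 on the log2 scale and did not pass (limma adjusted p = 0.160), but it did without A549 control replicate 1 (0.40, limma adjusted p = 0.0168). In this comparison 3 of 5 members were called higher in A549 and 1 lower, beside 32.4% and 55.9% of all tested genes.

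MTF1 was the member called lower in control A549, by 1.2-fold (2.41 ± 0.084 against 2.90 ± 0.0418 FPKM, log2 difference -0.19, limma adjusted p = 0.00547). The median of all tested genes in that comparison was -0.25, so MTF1 sat close to the typical gene. The median moved to -0.15 after quantile normalization, and the MTF1 difference was then -0.11 and not called (limma adjusted p = 0.105). With median centring it was -0.10 (limma adjusted p = 0.136). In exposed cells, MTF1 reached 3.70 FPKM in A549 and 3.82 FPKM in 293T.

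By level per length, the order in control A549 was MT2A, MT1X, SLC30A1, MTF1 and MT1F, at 230, 42.3, 14.3, 2.41 and 2.39 FPKM. MTF1 and MT1F did not differ there beyond the spread of MT1F, whose libraries ran from 1.65 to 3.09 FPKM. In control 293T, MT1X (13.8) and MT2A (13.7) were level within their spread, followed by SLC30A1 (6.72), MTF1 (2.90) and MT1F (1.86). In exposed A549 the order was the same as in its controls, with MTF1 at 3.70 FPKM above the MT1F range of 2.28 to 2.78 FPKM.

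The zinc transporters as a list, SLC30A1 included, changed in both directions. SLC30 proteins move zinc out of the cytosol and SLC39 proteins move it in, and 17 of the 24 genes were tested. In A549, 3 rose and 4 fell (median log2 fold change -0.06, beside -0.04 for all genes). In 293T, 3 rose and 3 fell (0.00 beside -0.03). Of all tested genes, 13.3% rose and 26.9% fell in A549, and 13.7% and 24.2% did so in 293T, so these counts lie near the background. SLC39A14, the zinc importer ZIP14, rose in A549 from 29.4 ± 0.893 to 40.6 ± 4.67 FPKM (log2 fold change 0.45, SE 0.07, limma adjusted p = 3.48e-04) and in 293T from 20.6 ± 0.623 to 25.6 ± 1.78 FPKM (0.30, SE 0.07, limma adjusted p = 0.00534). SLC39A6 rose in A549 from 26.7 ± 1.11 to 31.8 ± 0.358 FPKM (0.25, limma adjusted p = 9.16e-04) and was at 0.10 in 293T (limma adjusted p = 0.101). SLC39A7, which releases zinc from the endoplasmic reticulum, fell in A549 (-0.16, limma adjusted p = 0.0048) and in 293T (-0.21, limma adjusted p = 0.00113). SLC39A13 fell too, by 0.28 in A549 and by 0.16 in 293T on the log2 scale (limma adjusted p = 0.0013 and 0.0289).

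The counts of zinc transporters were small and moved with single libraries. Risers in A549 numbered 5 without A549 control replicate 1 and also with median centring or quantile normalization. Risers in 293T numbered 1 without 293T control replicate 1, without exposed replicate 1 or without exposed replicate 2. Fallers in 293T numbered 1 without control replicate 3, without exposed replicate 2 or without exposed replicate 3, and also with median centring or quantile normalization. Of the 17 genes, limma called 0 for a difference of the field effect between the lines.

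**Figure D5:**
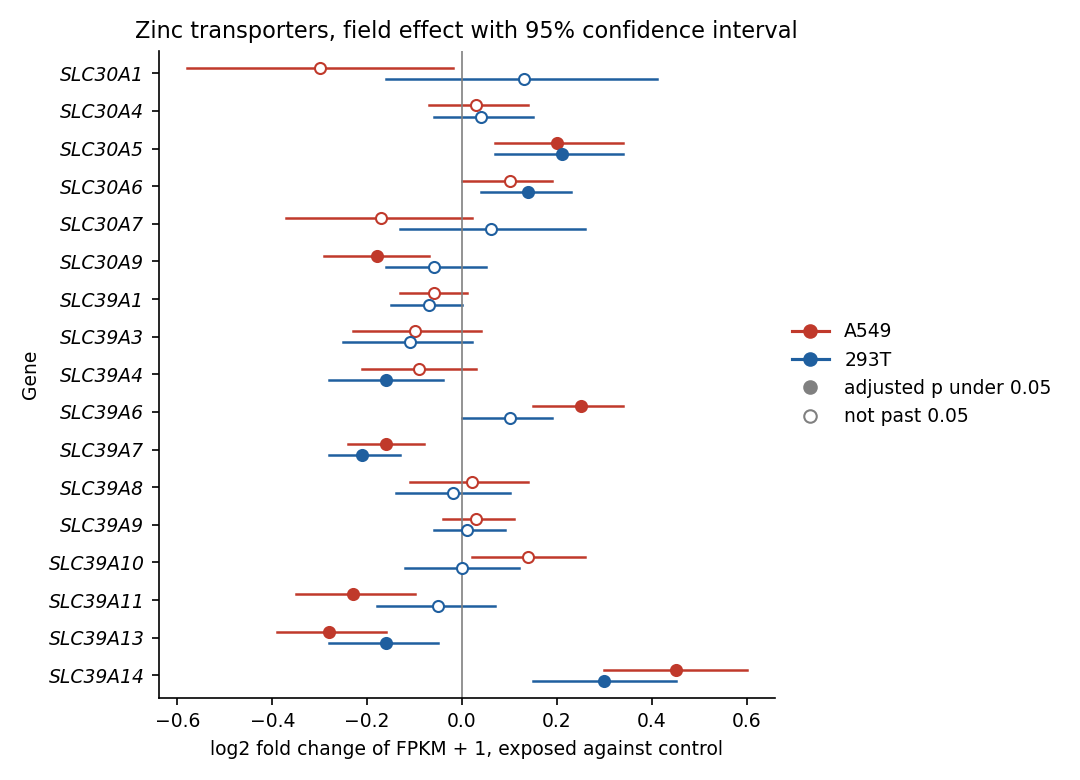
Log2 fold change of FPKM + 1, exposed against control (x axis), with its 95% confidence interval for the 17 zinc transporter genes tested (rows) in A549 (red) and 293T (blue); filled points have an adjusted p under 0.05. SLC39A14 lies farthest to the right in both lines, at 0.45 and 0.30, and SLC30A1 farthest to the left in A549, at -0.30, as an open point.

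Genes that handle copper, the other essential metal that metallothioneins bind, were also mixed. Of 17 tested, 4 rose and 5 fell in A549 (median -0.01), and 1 rose and 4 fell in 293T (median 0.00). Beside the shares of all genes (13.3% higher and 26.9% lower in A549, 13.7% and 24.2% in 293T), the fallers were near the background in both lines. The copper and zinc superoxide dismutase SOD1 rose 1.31-fold in A549 from 153 ± 5.55 FPKM (log2 fold change 0.38, limma adjusted p = 1.42e-05) and from 308 ± 2.15 to 355 ± 14.7 FPKM in 293T (0.20, limma adjusted p = 0.00132). Its effect was larger in A549 by 0.18 (limma adjusted p = 0.0419). STEAP3, a metal reductase, fell in both lines (-0.34 and -0.27, limma adjusted p = 5.15e-05 and 3.87e-04). SCO2, which delivers copper to cytochrome c oxidase, fell in A549 (-0.43, limma adjusted p = 1.05e-04) and was at -0.12 in 293T (limma adjusted p = 0.106). CCS, the chaperone that loads copper into SOD1, fell in 293T (-0.22, limma adjusted p = 0.00269) and was at -0.11 in A549 (limma adjusted p = 0.0734). Fallers in A549 numbered 3 without A549 exposed replicate 1 and also with median centring. Risers in 293T numbered 2 without 293T exposed replicate 2, without A549 control replicate 3, with median centring or with quantile normalization.

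Heat shock and electrophile response genes, a group that cadmium also raises, held the largest changes among the lists examined. The list was chosen with earlier results of these data known, so its rank and its counts of risers are descriptive only. Of 21 tested, 10 rose and 3 fell in A549 (median 0.07), and 17 rose and 1 fell in 293T (median 0.52), where the shares of all genes were 13.3% higher and 26.9% lower in A549 and 13.7% and 24.2% in 293T. Fallers in A549 numbered 5 with quantile normalization. HSPA1A, an inducible HSP70 gene, went from 49.9 ± 1.3 to 584 ± 144 FPKM in A549 and from 9.29 ± 0.384 to 112 ± 38.1 FPKM in 293T, with log2 fold changes of 3.49 and 3.39 (limma adjusted p = 7.81e-07 and 3.50e-06). HSPA1B, a near-identical copy that may share its reads, rose by 3.90 and 2.69 on the same scale (limma adjusted p = 4.01e-07 and 7.52e-06). The co-chaperones HSPH1 (2.08 and 1.00, limma adjusted p = 9.50e-07 and 2.08e-04) and BAG3 (2.27 and 1.57, limma adjusted p = 2.91e-06 and 7.03e-05) rose as well. HSPA6, named after its values were seen, had the largest change of the list in A549 (6.58, limma adjusted p = 1.57e-05). Its exposed A549 libraries spread widely, at 209 ± 192 FPKM, and it rose by 3.05 in 293T (limma adjusted p = 0.00317). In the same fit the upper bounds of the 95% intervals for MT2A were 0.21 in A549 and 0.30 in 293T. Whether metals had a part in any of these changes was not tested. GCLC, for glutathione synthesis, and SRXN1, for thiol repair, were named after their values were seen. Both fell in A549, GCLC from 56.7 ± 1.70 to 39 ± 3.70 FPKM (-0.53, limma adjusted p = 2.95e-05) and SRXN1 from 148 ± 4.49 to 113 ± 7.09 FPKM (-0.38, limma adjusted p = 3.44e-05). In 293T, SRXN1 fell (-0.25, limma adjusted p = 8.18e-04), while GCLC was at 14.7 FPKM in both groups (limma adjusted p = 0.980), and its effect differed between the lines by -0.53 (limma adjusted p = 0.00171). SRXN1 was the 1 faller of the 21 there. TXNRD1 and OSGIN1 were, with GCLC, the 3 genes of the list not called in 293T (-0.02 and -0.13, limma adjusted p = 0.733 and 0.26). GCLM, SLC7A11 and NQO1, also named after their values were seen, all rose in 293T. GCLM was at -0.13 in A549 and rose by 0.28 in 293T (limma adjusted p = 0.312 and 0.0314). SLC7A11 fell in A549 but rose in 293T (-0.51 and 0.53, limma adjusted p = 0.0274 and 0.0257). NQO1 was at 0.04 in A549 and rose by 0.19 in 293T (limma adjusted p = 0.561 and 0.0129). HMOX1, heme oxygenase 1, also named after its values were seen, rose in A549 from 47.3 ± 1.41 to 66.1 ± 6.53 FPKM (0.47, limma adjusted p = 1.11e-04) and in 293T from 33.4 ± 1.17 to 38.8 ± 2.05 FPKM (0.21, limma adjusted p = 0.0191).

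Targets of the glucocorticoid receptor, the other classical route to MT2A, were again mixed. Of 13 tested, 5 rose and 6 fell in A549 (median 0.01), and 4 rose and 2 fell in 293T (median 0.03), beside 13.3% higher and 26.9% lower of all genes in A549 and 13.7% and 24.2% in 293T. ERRFI1, an inhibitor of the epidermal growth factor receptor, rose by 0.98 in A549 and 0.31 in 293T (limma adjusted p = 6.63e-07 and 0.00107). DUSP1, a phosphatase of MAP kinases that heat and oxidants also raise, rose by 1.29 and 1.24 (limma adjusted p = 2.91e-06 and 1.28e-05). TSC22D3 rose by 0.15 and 0.45 (limma adjusted p = 0.0133 and 2.99e-05), and the kinase gene SGK1 by 0.28 and 0.41 (limma adjusted p = 7.24e-04 and 1.02e-04). These 4 genes have the smallest adjusted p, and they do not stand for the list. The 6 fallers in A549, named after their values were seen, were FKBP5, PER1, KLF9, NFKBIA, TFCP2L1 and SCNN1A, at -0.32 to -0.25. PER1 and TFCP2L1 were the 2 fallers in 293T (-0.16 and -0.26). Fallers in 293T numbered 1 without 293T control replicate 1, without control replicate 3 or without exposed replicate 2. They also numbered 1 with quantile normalization, median centring, no filter, a mean of at least 1 FPKM or a pseudocount of 0.1, and 3 with limma-voom.

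Across the 12 libraries, with the mean of each line removed, the genes whose log2(FPKM + 1) followed MTF1 most closely were PCGF1 (Pearson r = 0.987), BOD1 (0.987), SENP5 (0.986), PWWP2A (0.985) and BRPF3 (0.983), out of 11635 genes compared. These 5 rose with the field in both lines, by 0.29 to 0.51 in A549 and by 0.24 to 0.41 in 293T on the log2 scale. The genes most like MT2A were SNHG10 (0.893), GGCX (0.824), PUS1 (0.809), PAXX (0.787) and FAM151B-DT (0.785), out of 11636, and none of them was called in either line. MT2A and MTF1 had a Pearson r of -0.02, MT2A and MT1X of 0.19, MT1X and MTF1 of -0.66, and MTF1 and SLC30A1 of -0.38. Only the mean of each line was removed, so the difference between exposed and control stayed in these values. Genes picked for following MTF1 would therefore rise with the field as it did, and the value for MT1X and MTF1 in part restates their field effects. The correlations describe 12 libraries that share their groups and library scale, and carry no test.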

How the data were processed

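Poly(A)-selected RNA of 293T and A549 cells was sequenced as paired reads, per the labels' protocols. fastp, HISAT2 and HTSeq were used with GRCh38, per the submitters' processing notes; the sources used here do not state versions or strand use. The authors deposited FPKM for 26348 genes. FPKM values are shares of a library, and a rise of abundant transcripts therefore lowers the rest. FPKM ratios between libraries were those of whole counts, recovered within 0.01 counts for 100% of genes. For a gene with a value in a single library, such as MT1E, MT1G or MT1HL1, the recovery sets the count to 1. The match is no check there, and the limit for MT1G rests on that count. The recovered counts gave the depth, the limits at 0 and the limma-voom alternative.

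Genes with at least 0.5 FPKM in at least 3 of 12 libraries were kept (13811 kept, 12537 removed). The log2(FPKM + 1) values, which understate changes of low genes, entered a limma 3.58.1 fit (R 4.3.3) with group means, an intensity trend and 8 residual degrees of freedom. Tests were two-sided. Other values came from Python 3.11.15 with pandas 2.3.3 and numpy 2.4.6. Locations are RefSeq's for GRCh38.p14. The fit was tested on simulated data.

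The genes and the 5 lists (metallothioneins, zinc transporters, copper handling, metal and electrophile stress, glucocorticoid targets) were chosen with earlier results of these data known. All 8 genes were named, with the other listed metallothioneins, the 4 genes of each other list with the smallest adjusted p in either line, and the 5 genes most correlated with MT2A and with MTF1 among those with a mean of at least 1 FPKM. The alternatives were no filter on low values, a pseudocount of 0.1, a mean of at least 1 FPKM, quantile normalization, median centring, no trend, rescaling without mitochondrially encoded genes, limma-voom, the replicate number as a block, and leaving out each library.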

Additional observations from a re-analysis of the deposited data

How the results depend on the processing

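The calls of the 5 members were recomputed under 21 alternatives, 12 of which left out 1 library each. The count of called members was 2 to 3 in A549, 1 in 293T and 3 to 5 for control A549 against control 293T. For the difference of the field effect between the lines it was 0, and 0 to 1 with single libraries left out. MTF1 was called in both lines and MT1X in A549 in every one of the 21 alternatives, and MT2A and MT1F had no field effect called in any of them. No sign was seen that the replicate numbers pair the libraries. Same-numbered exposed and control libraries had correlations of their deviations between -0.141 and 0.000139, and no library correlated best with its own number. Deviations from a mean of 3 libraries balance around 0, so this check cannot exclude pairing. With the number as a block, 4903 genes were called in A549 against 5548 without it, 4459 against 5243 in 293T, and 1047 against 1732 for the difference between the lines. For members, the block changed the call of MTF1 between the controls (-0.18, limma adjusted p = 0.0621) and no other call of a member. With the block, the controls were compared at replicate 1 of each line and not by their means. That value is therefore not comparable with the one without the block. The block also left 1 faller in 293T among the zinc transporters and 1 among the glucocorticoid targets, against 3 and 2 without it. The summed metallothionein level, exposed over control, was 0.927 in A549 (0.883 to 0.965) and 0.978 in 293T (0.927 to 1.07). These ranges cover 7 alternatives for each line and not the 21 above. Depth limits MT1A, MT1E, MT1F, MT1G, MT1HL1 and MT3, with at most 56 counts per library. With 3 libraries a group, the intervals of MT2A leave changes of up to about 0.35 on the log2 scale unresolved.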
